A study of Mus musculus with 6 samples.

Results

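The genes described here belong to the transforming growth factor beta (TGF-beta) and bone morphogenetic protein (BMP) pathway. They are 49 genes chosen by name, for ligands, receptors, SMAD proteins, intracellular regulators, latent binding proteins, secreted antagonists and the Id genes, out of 51912 genes in the table. All 49 were found by symbol, and 44 reached 1 TPM (a transcript count scaled for length and to a fixed total per library) in 3 or more of the 6 libraries and were tested. RNA was sequenced from primary fibroblasts of mice, in 3 control libraries and in 3 libraries of cells treated with the chemokine CXCL3, a ligand of the receptor CXCR2. Both groups came from mice aged 6 weeks, the treatment lasted 48 h, and the series title sets it in a study of myofibroblasts and pancreatic cancer spread. The labels give no strain, organ, dose or vehicle, and name no separate cultures or animals behind the replicates, so that p-values measure the spread between these libraries, which may be technical.

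Ligands of this family are secreted as dimers and bind pairs of type I and type II serine/threonine kinase receptors. TGF-beta and activin receptors phosphorylate SMAD2 and SMAD3, BMP receptors phosphorylate SMAD1, SMAD5 and SMAD9, and both groups enter the nucleus with SMAD4. TGF-beta drives fibroblasts towards the contractile myofibroblast state and matrix deposition. The Id genes are classic direct targets of BMP signalling, and their proteins bind E-protein transcription factors and keep them off DNA.

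The 3 expressed Id genes, Id1, Id2 and Id3, were higher in every CXCL3 library than in any control library. That held for 7.92% of all tested genes, and no member passed the test over all genes. Id1 had the smallest p of all members, with a control mean of 61.95 TPM and a CXCL3 mean of 98.3 TPM. Most receptors, SMADs and latent binding proteins had higher means with CXCL3 too, but there the difference lay in controls 2 and 3 and not in control 1. Promoter stretches of 3 of the genes that were higher in all CXCL3 libraries are shown first, because SMAD proteins bind short DNA boxes and these are the letters the pathway is known to read. The sequences are from RefSeq on the mouse build GRCm38.p6, where 35 of the 49 members had a promoter of 250 bases before to 50 bases after the transcript start. The other 14, Id1 among them, had none there and were not searched. Bmp4, which was higher in all CXCL3 libraries by 0.01 TPM, is not shown. Each stretch shown is 30 bases long, 5′ to 3′ on the gene's strand, with the matched box in capitals.
Id2, chr12:25096306-25096335, minus strand: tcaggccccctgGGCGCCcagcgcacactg
Id3, chr4:136143643-136143672, plus strand: tgtcctcggcgtCAGACcagcctaaggaag
Id3, chr4:136143742-136143771, plus strand: ggacccttggcgGTCTGttttgaataaggg
Smad6, chr9:64022045-64022074, minus strand: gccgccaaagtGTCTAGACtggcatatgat

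Smad6 held the palindromic SMAD box GTCTAGAC, which begins 4 bases before its RefSeq start. This box was found in 0.213% of 32851 promoter windows of 300 bases, and in 1 of the 46 windows of members. Id2 held GGCGCC, a GC-rich box of BMP-responsive elements, 231 bases before its start. That box was in 11.9% of all windows and in 14 of the 46 member windows. Id3 held the core CAGAC or its reverse complement GTCTG at 2 places, 167 and 68 bases before its start, and that core was in 49.6% of all windows and 22 of the 46 member windows. All 3 boxes were searched on both strands. Id2 held only the GC-rich box, Id3 only the core and Smad6 only the palindromic box, so the 3 genes shared none. GTCTAGAC and GGCGCC read the same on either strand, and none of the 3 contains another. In the GENCODE M21 annotation of GRCm38 both Id3 stretches lie in the 5′ UTR exon of an Id3 transcript, the Smad6 stretch crosses the first base of a Smad6 transcript, and the Id2 stretch lies in an intron of a longer Id2 transcript. A match is a description of these letters and no evidence of binding in these cells.

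The cultures were not fibroblasts alone by their markers. Among 9 fibroblast markers, Col1a1, Col1a2, Dcn and Vim were abundant, while Lum (0.06 to 0.50 TPM) and Fap (0.16 to 0.54 TPM) were near 0. All 12 macrophage markers passed the filter, with a summed level of 15320 to 18322 TPM in controls and 15012 to 15108 TPM with CXCL3. Lyz2 alone held 13115 to 16166 TPM. C1qa passed the test with a lower level with CXCL3, just under the threshold (adjusted p = 0.0493 by limma), and was not followed under other settings. C1qb, C1qc and Lyz2 were also lower in all CXCL3 libraries than in any control, and did not pass (adjusted p = 0.206, 0.110 and 0.493). Of the 12, 5 had a positive and 7 a negative log2 fold change, and Mrc1 had the opposite order to C1qa without overlap (9.80 to 13.4 TPM in controls, 16.0 to 18.1 TPM with CXCL3). Epithelial (0.99 to 1.96 TPM summed over 7 markers) and lymphocyte markers (0 to 0.14 TPM over 5) were near 0. Sums were 18.58 to 22.98 TPM for 7 endothelial, 17.43 to 31.41 TPM for 6 mural and 22.35 to 33.68 TPM for 4 mesothelial markers. Most of the mesothelial sum was Wt1. The 6 neutrophil and mast cell markers summed to 529.47 to 668.82 TPM, nearly all from S100a8, with S100a9 at 0 to 0.71 TPM. Whether these levels came from further cell types was not tested. In such cultures fewer cells of a type and less RNA per cell cannot be told apart, and the part of macrophages in the results below was not tested. Controls 2 and 3 stood apart from the other 4 libraries on the first principal component, which held 52.9% of the variance. TPM keeps no depth, so no value has a counting interval. The limma test on log2(TPM + 1) called 21 of 13139 genes at an adjusted p under 0.05.

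Among the ligands, Inhba, the gene of the activin A subunit, had the highest level, and Tgfb1 was next. In controls 1, 2 and 3 Inhba stood at 536, 298 and 272 TPM, against 603, 553 and 434 TPM in the CXCL3 libraries, listed in the same order here and below. Control 1 lay between the CXCL3 libraries, and controls 2 and 3 lay below all others. The log2 fold change was 0.58 ± 0.25 (SE; limma, adjusted p = 0.431), and it was -0.03 when controls 2 and 3 were left out. Tgfb1, the main TGF-beta of fibroblasts and macrophages, stood at 139, 134 and 144 TPM in controls against 133, 129 and 135 TPM under CXCL3. The Tgfb1 groups overlapped, and the log2 fold change was -0.07 ± 0.06 (adjusted p = 0.577). Tgfb3 (17.5 ± 2.46 and 16.3 ± 0.33 TPM, mean ± SD, n = 3 each) and Tgfb2 (3.86 ± 0.52 and 3.39 ± 0.18 TPM), the other TGF-beta isoforms, were lower than Tgfb1 in level and also overlapped between the groups. Gdf15, a stress-induced member of the family, averaged 34.2 ± 3.90 TPM in controls against 39.8 ± 2.33 TPM under CXCL3 (adjusted p = 0.457).

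BMP ligand transcripts were scarce. Bmp2, Bmp4 and Bmp6 lay between 0.88 and 1.80 TPM in every library, and Bmp7 at 0.04 TPM or less, under the filter. Bmp2 stood at 1.64, 1.80 and 1.57 TPM in controls against 1.12, 1.38 and 1.05 TPM under CXCL3. All its CXCL3 libraries lay below all controls, with an adjusted p of 0.457 by limma. Bmp4 lay the other way, at 1.05, 1.12 and 0.88 TPM in controls and 1.18, 1.45 and 1.13 TPM with CXCL3 (adjusted p = 0.607). At levels this near the filter the log2(TPM + 1) scale understates a fold change. Inhbb, of the activin B subunit, was at 8.17 ± 1.23 and 8.44 ± 0.24 TPM.

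**Figure D1:**
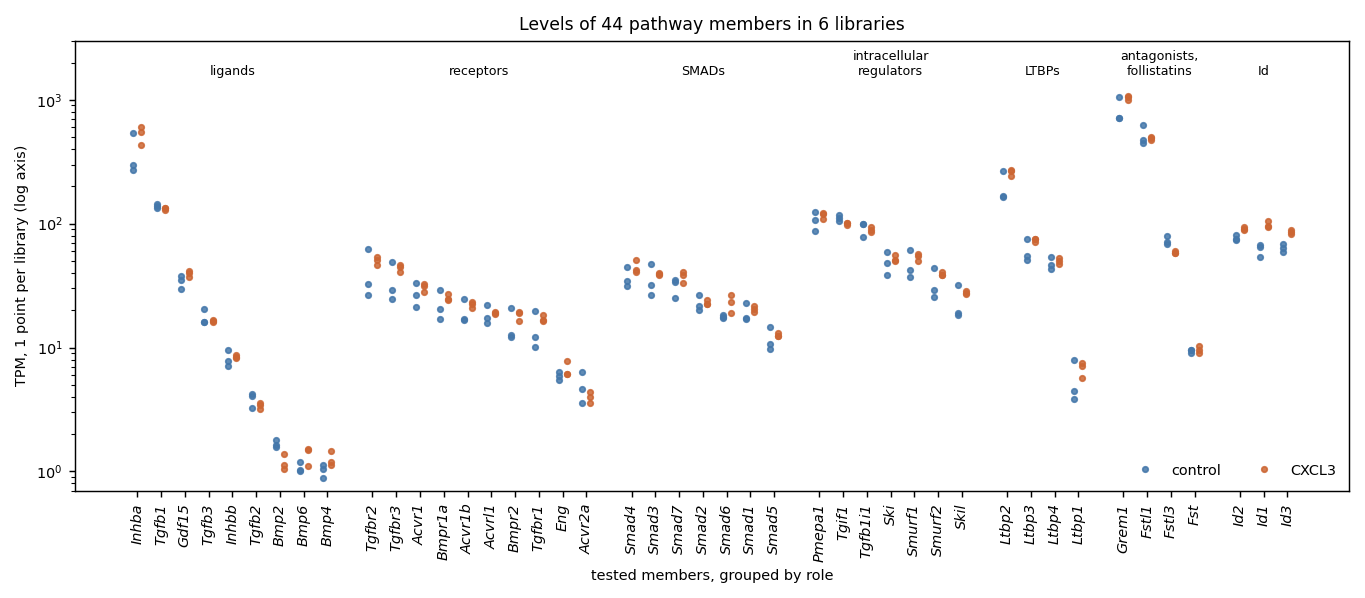
TPM of the 44 tested members in each of the 6 libraries on a log axis, grouped by role, with controls in blue and CXCL3 libraries in orange. Grem1, Fstl1 and Inhba are the highest members and Bmp2, Bmp4 and Bmp6 the lowest.

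Of the 11 receptors and co-receptors, 10 were tested and 9 had a positive log2 fold change, with a median of 0.205. None passed the test, and in none did the groups separate. Tgfbr2, the type II receptor that binds TGF-beta, was the highest receptor, at 62.4, 26.8 and 32.8 TPM in controls and 53.7, 50.5 and 46.2 TPM with CXCL3. Control 1 was the highest of the 6 libraries and controls 2 and 3 the lowest. Its log2 fold change was 0.39 ± 0.28 (adjusted p = 0.521), 0.74 without control 1 and -0.31 without controls 2 and 3. The same order held for Tgfbr3, the co-receptor betaglycan (49, 24.87 and 29.09 TPM in controls against 46.40, 45.03 and 40.51 TPM under CXCL3). Tgfbr1, the type I receptor, stood at 19.7, 10.1 and 12.1 TPM in controls against 16.5, 18.3 and 16.5 TPM under CXCL3. The BMP receptor genes Bmpr1a (22.3 ± 6.37 and 25.3 ± 1.46 TPM) and Bmpr2 (15.2 ± 4.87 and 18.2 ± 1.48 TPM) and the activin receptor genes Acvr1 and Acvr1b showed this pattern at lower size. Eng, the co-receptor endoglin, was at 5.88 ± 0.43 and 6.64 ± 0.95 TPM. Acvr2a, an activin type II receptor, had the single negative log2 fold change (-0.20 ± 0.20), and Acvr2b was under the filter.

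All 7 tested SMAD genes had a positive log2 fold change, with a median of 0.194, and only Smad6 separated the groups. Smad6, an inhibitory SMAD that is itself induced by BMP signalling, stood at 18.2, 17.3 and 17.6 TPM in controls against 26.6, 23.1 and 19.0 TPM under CXCL3. CXCL3 library 3 lay 0.8 TPM above control 1, so the separation rests on a small gap. The log2 fold change was 0.34 ± 0.13 (limma, unadjusted p = 0.0332, adjusted p = 0.404), 0.36 without control 1 and 0.31 without controls 2 and 3. Smad7, the other inhibitory SMAD, stood at 34.0, 25.0 and 35.1 TPM in controls against 40.4, 38.3 and 33.5 TPM under CXCL3, and these overlapped. Smad4, the shared partner, was the highest SMAD gene (37.0 ± 7.14 and 44.8 ± 5.52 TPM, adjusted p = 0.471). The receptor-regulated Smad3 was at 35.2 ± 10.6 and 39.4 ± 0.74 TPM, Smad2 at 22.8 ± 3.26 and 23.1 ± 1.13 TPM, Smad1 at 19.2 ± 3.25 and 20.6 ± 1.29 TPM and Smad5 at 11.7 ± 2.59 and 12.7 ± 0.41 TPM. Smad9 was between 0.23 and 0.68 TPM and was not tested.

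Among the intracellular regulators, Pmepa1, a TGF-beta-induced membrane protein that dampens SMAD signalling, had the highest level. It stood at 124, 87.6 and 108 TPM in controls against 120, 108 and 122 TPM under CXCL3, with overlapping groups (log2 fold change 0.14 ± 0.13, adjusted p = 0.587). Tgif1, a co-repressor of SMAD target genes, stood at 111, 105 and 117 TPM in controls against 101, 101 and 97.3 TPM under CXCL3. Every CXCL3 library of Tgif1 lay below every control (log2 fold change -0.15 ± 0.07, adjusted p = 0.443), and the value stayed at -0.15 without control 1 and without controls 2 and 3. The ubiquitin ligase genes Smurf1 and Smurf2 and the co-repressor genes Ski and Skil had positive log2 fold changes between 0.13 and 0.30, each with control 1 above all CXCL3 libraries. Tgfb1i1, of the focal adhesion protein Hic-5, was at 92.2 ± 12.1 and 89.5 ± 3.74 TPM.

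Latent TGF-beta binding proteins hold the inactive ligand in the matrix. Ltbp2, which unlike the others does not bind latent TGF-beta, had the highest level of the 4. It stood at 264, 164 and 166 TPM in controls against 272, 267 and 242 TPM under CXCL3, with control 1 inside the CXCL3 range. The log2 fold change of Ltbp2 was 0.43 ± 0.18 (unadjusted p = 0.0439, adjusted p = 0.425 by limma), 0.65 without control 1 and -0.02 without controls 2 and 3. Ltbp3 also had control 1 inside the CXCL3 range (74.5, 50.6 and 55.3 TPM in controls against 75.3, 75.2 and 71.5 TPM under CXCL3; log2 fold change 0.31 ± 0.14). Ltbp4 was at 47.6 ± 5.35 and 49.95 ± 2.85 TPM and Ltbp1 at 5.41 ± 2.23 and 6.76 ± 0.92 TPM.

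Secreted antagonists included the highest member of all. Grem1, the gene of the BMP antagonist gremlin 1, stood at 1056, 715 and 708 TPM in controls against 1067, 1058 and 993 TPM under CXCL3, at the 98.8th percentile of mean level among tested genes. Control 1 lay inside the CXCL3 range and controls 2 and 3 well below it. The log2 fold change of Grem1 was 0.36 ± 0.15 (unadjusted p = 0.0468, adjusted p = 0.426 by limma), 0.55 without control 1 and -0.02 without controls 2 and 3. Fstl3, a follistatin-like protein that binds activins, stood at 80.1, 68.6 and 71.2 TPM in controls against 60.3, 58.0 and 57.8 TPM under CXCL3. All CXCL3 libraries of Fstl3 lay below all controls, with a log2 fold change of -0.31 ± 0.08 (unadjusted p = 0.00587, adjusted p = 0.265 by limma). It was -0.25 without control 1, where it passed (adjusted p = 0.0189) in a fit that called 32.4% of all genes. Without controls 2 and 3 it was -0.44. Fstl1, a secreted glycoprotein of the follistatin family, stood at 631, 444 and 475 TPM in controls against 503, 492 and 478 TPM under CXCL3, and Fst, follistatin itself, at 9.36 ± 0.21 and 9.62 ± 0.59 TPM. Nog, of the BMP antagonist noggin, was between 0.22 and 0.64 TPM and was not tested.

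The Id genes were the only role in which every tested member separated the groups, where 7.92% of all genes separated upward. Id1 stood at 54.1, 64.3 and 67.5 TPM in controls against 94.2, 105 and 95.9 TPM under CXCL3, a ratio of means of 1.59. Its lowest CXCL3 library lay 26.7 TPM above its highest control, and control 1, which sat with the CXCL3 libraries for many members, was here the lowest of the 6. The log2 fold change of Id1 was 0.66 ± 0.10 (SE; limma, unadjusted p = 0.000214, adjusted p = 0.1004), which missed the threshold. It passed without control 1 (0.57, adjusted p = 0.00498) and with library weights (0.60, adjusted p = 0.0238), in fits that called 32.4% and 11% of all genes. It also passed after a correction for transcript length and GC in each library (0.82, adjusted p = 0.0206), where 0.114% were called. Without controls 2 and 3 the log2 fold change of Id1 was 0.85. That fit leaves 1 control, so its spread within groups comes from the CXCL3 libraries alone. The median SD over tested genes was 0.0861 in the CXCL3 libraries and 0.203 in controls, so no p-value is given for that fit. Under the other settings with more than 1 control Id1 did not pass, with an adjusted p of up to 0.245, or of up to 0.449 with 1 library left out. Id3 stood at 63.3, 58.8 and 69.1 TPM in controls against 85.2, 83.2 and 88.4 TPM under CXCL3. Its groups did not overlap, with a log2 fold change of 0.42 ± 0.08 (unadjusted p = 0.00105, adjusted p = 0.157 by limma). Without control 1, where 32.4% of all genes were called, it was 0.42 and passed (adjusted p = 0.0117). Without controls 2 and 3 it was 0.43. Id2 stood at 75.4, 81.3 and 73.8 TPM in controls against 91.4, 93.8 and 89.4 TPM under CXCL3. The Id2 groups did not overlap either, with a log2 fold change of 0.25 ± 0.07 (unadjusted p = 0.00836, adjusted p = 0.287 by limma). It was 0.24 without control 1, where it too passed with 32.4% of all genes (adjusted p = 0.0304). Without controls 2 and 3 it was 0.28. Id4 lay between 0.23 and 0.63 TPM and was not tested. On GRCm38, Id1 (ENSMUSG00000042745) lies on chromosome 2 from 152736251 to 152737410, Id2 (ENSMUSG00000020644) on chromosome 12 from 25093799 to 25097140 and Id3 (ENSMUSG00000007872) on chromosome 4 from 136143497 to 136145755. Smad6 lies on chromosome 9 from 63953076 to 64022059, Fstl3 on chromosome 10 from 79777272 to 79782630 and Grem1 on chromosome 2 from 113746164 to 113758646.

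**Figure D2:**
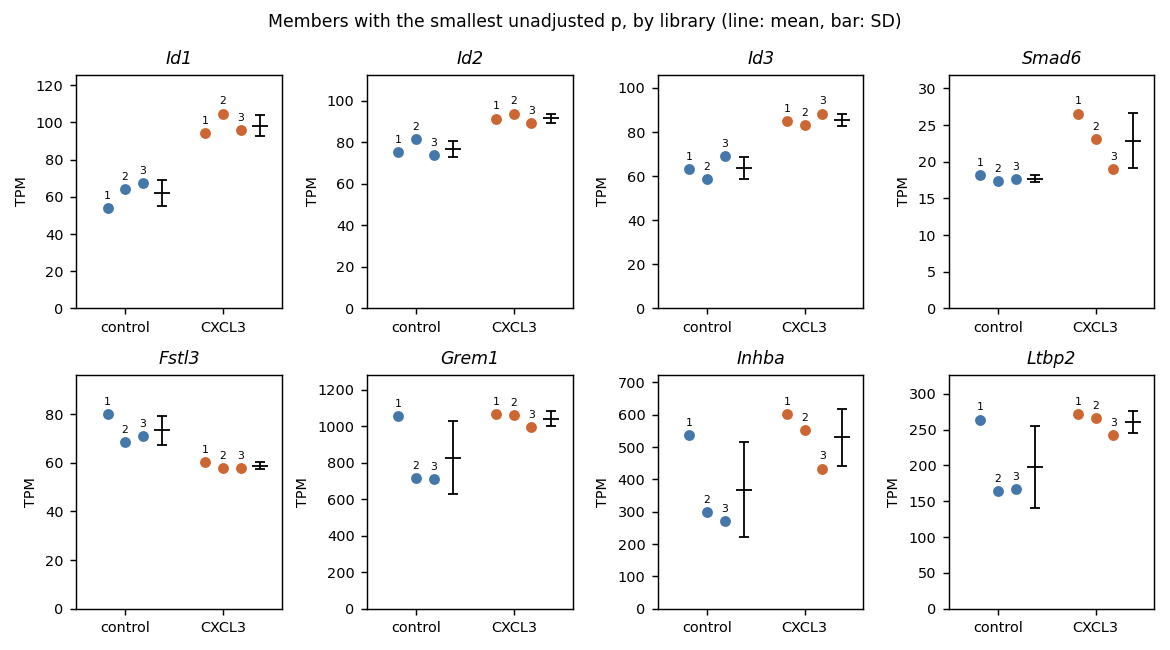
TPM of 8 members in each library, numbered by replicate, with the group mean and SD beside the points. Id1, Id2, Id3 and Smad6 are higher and Fstl3 lower in all 3 CXCL3 libraries, while for Grem1, Inhba and Ltbp2 control 1 lies with the CXCL3 libraries.

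Over all members, 0 of 44 passed an adjusted p of 0.05 by limma, where 0.16% of all genes tested passed. At an unadjusted p under 0.05 there were 6 members higher and 1 lower (15.9% of the 44), against 11.6% of all genes, of which 5.93% were higher and 5.65% lower. The 6 higher were Id1, Id2, Id3, Smad6, Ltbp2 and Grem1, and the lower one was Fstl3. Groups did not overlap for 8 members (18.2%), against 17.2% of all genes, of which 7.92% were higher and 9.31% lower. The 5 that separated upward were Id1, Id2, Id3, Smad6 and Bmp4 (the last by 0.01 TPM), and the 3 that separated downward were Fstl3, Bmp2 and Tgif1. As a whole the members therefore separated about as often as genes in general. Of the 44, 35 had a positive and 9 a negative log2 fold change (79.5% positive, where 62.3% of all genes were), with a median of 0.196 beside 0.07 for all genes.

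The positive balance moved with the 2 controls that stood apart. Controls 2 and 3 were both below all the other 4 libraries for 28 of 44 members (63.6%), against 42.2% of all genes, a pattern that was chosen after the values were seen. They were both above the other 4 for 0 members, against 11.6% of all genes. The median member deviated from its 6-library mean on the log2 scale by 0.20 in control 1, -0.28 in control 2 and -0.18 in control 3, and by 0.11, 0.14 and 0.01 in CXCL3 libraries 1, 2 and 3. The median over all genes ran the same way, at 0.11, -0.13 and -0.08 in the controls and 0.05, 0.05 and 0.01 in the CXCL3 libraries. Without controls 2 and 3 the median log2 fold change of the members was -0.15, with 11 positive and 33 negative, and the all-gene median was -0.08. Control 1 then stands alone and is assumed to vary like the CXCL3 libraries, though the median SD was 0.203 in controls and 0.0861 with CXCL3. Without control 1 the median was 0.28, and 21 members passed by limma (20 higher, 1 lower) in a fit that called 32.4% of all genes. The members' transcripts were longer than most, with a median of 4266.5 bases against 3213 for all genes. Across the 44 members, which share the 6 libraries and are not independent, the log2 fold change had a Spearman correlation of 0.25 with transcript length, and over all genes it was 0.45. The part of transcript length in the members' differences was not tested, and after the length and GC correction their median was 0.11.

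**Figure D3:**
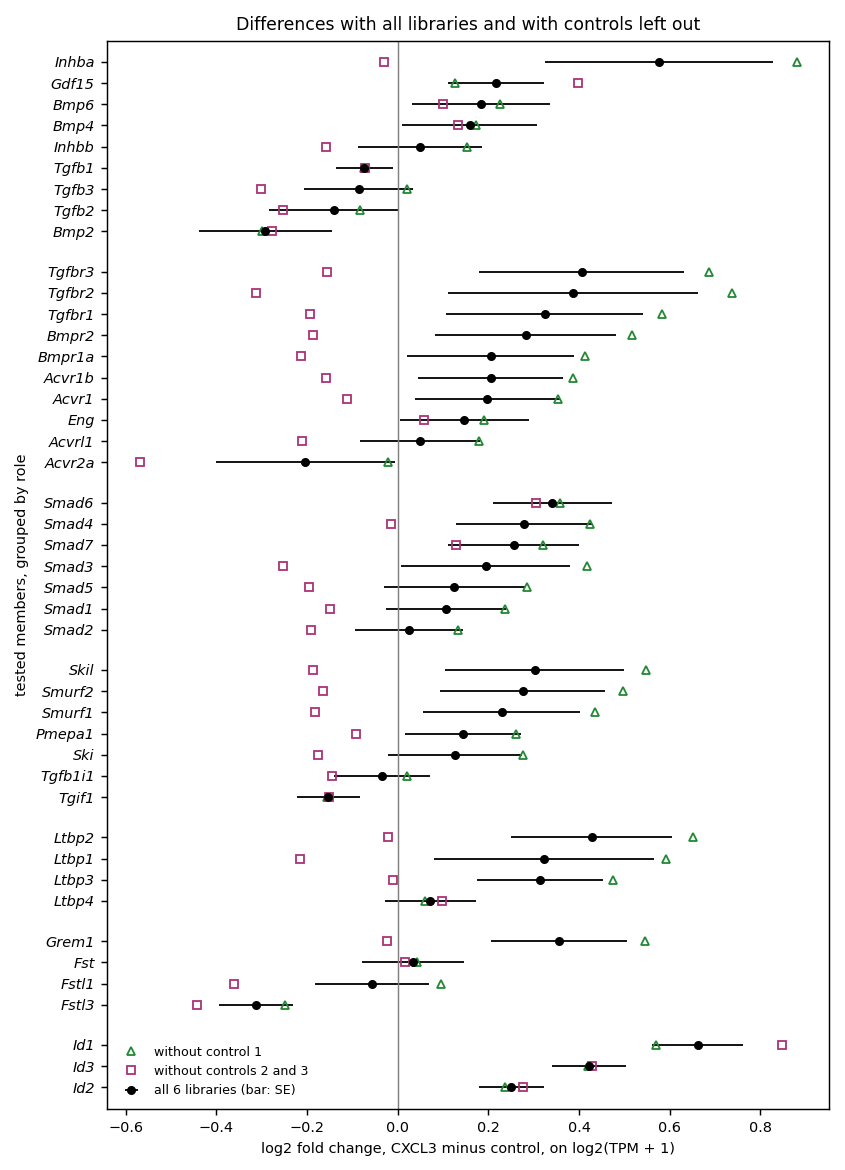
Log2 fold change of each tested member, CXCL3 minus control, with all 6 libraries (black, bar: SE), without control 1 (green triangles) and without controls 2 and 3 (purple squares). The Id genes, Smad6 and Fstl3 keep their side in all 3 fits, which follows from groups that do not overlap. Other members keep theirs too, such as Gdf15 and Tgfb1, whose groups overlap. Most receptors cross 0 when controls 2 and 3 are left out.

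**Figure D4:**
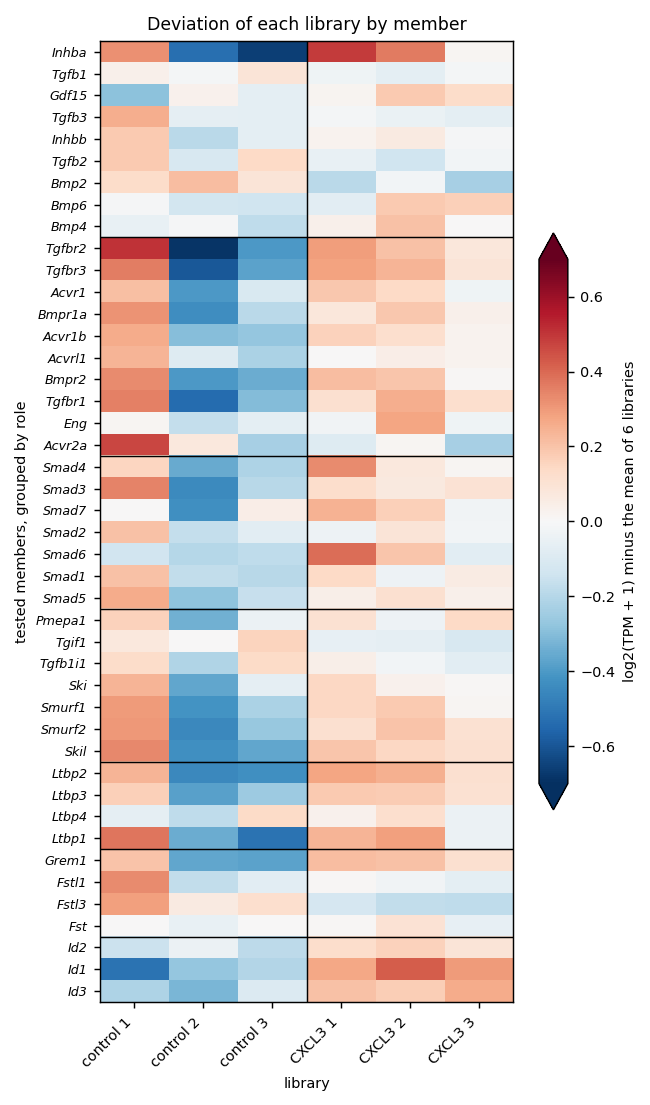
Deviation of each library from the mean of the 6 on the log2(TPM + 1) scale, with 1 row for each tested member and red above the mean. Controls 2 and 3 are blue for most receptors, SMADs and regulators, where control 1 is red, and the Id rows at the foot are blue in all 3 controls.

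Other genes of the pathway were counted from lists written by role. Of 122 such names outside the members, 120 matched a gene of the table and 85 were tested. Of the 85, 53 had a positive and 32 a negative log2 fold change, and the median was 0.073. Limma called 0 of them higher and 3 lower at an adjusted p under 0.05, where 0.0304% of all genes were called higher and 0.129% lower. All 3 were among 27 tested target genes of TGF-beta: the smooth muscle actin gene Acta2 (log2 fold change -0.71), the transgelin gene Tagln (-0.56) and the type III collagen gene Col3a1 (-1.05), each at an adjusted p of 0.0293. None of the 3 was called with no filter (adjusted p = 0.107 each), with eBayes without trend (adjusted p of 0.108 to 0.156) or without control 3 or any 1 CXCL3 library. Acta2 and Tagln were not called under median-of-ratios scaling (adjusted p = 0.0991 and 0.14), nor Tagln after the length and GC correction (adjusted p = 0.116). That list gave 12 positive and 15 negative values, and its median was -0.106. At an unadjusted p under 0.05 it had 7 lower and 0 higher genes, where 5.65% and 5.93% of all genes were. The same list held Timp1, its most abundant gene, a metalloproteinase inhibitor at 5907 ± 500 and 4720 ± 61.6 TPM (adjusted p = 0.245 by limma). The log2 fold change of Timp1 was -0.32, and -0.14 after the length and GC correction. The classic TGF-beta target Ccn2 (616 ± 103 and 562 ± 5.29 TPM) overlapped between the groups and was looked up after the values were seen.

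Among BMP target genes other than the Id genes, 7 of 12 were tested, 5 of them positive. Atoh8, a transcription factor gene induced by BMP signalling, stood at 3.34, 3.20 and 4.01 TPM in controls against 6.98, 7.37 and 6.55 TPM under CXCL3. All CXCL3 libraries of Atoh8 lay above all controls, with a log2 fold change of 0.82 ± 0.14 (limma, unadjusted p = 0.000399, adjusted p = 0.110), 0.80 without control 1 and 0.88 without controls 2 and 3. That list shares Smad6 and Smad7 with the members, and 3 of its genes (Atoh8, Smad6 and Runx2) were higher at an unadjusted p under 0.05, where 5.93% of all genes were. Runx2, a bone transcription factor gene, had control 1 (12.1 TPM) inside its CXCL3 range (11.2 to 14.7 TPM). Of the E-protein genes whose products bind ID proteins, Tcf3 stood at 39.0, 30.7 and 29.9 TPM in controls against 41.0, 43.0 and 40.6 TPM under CXCL3 (adjusted p = 0.375 by limma). The log2 fold change of Tcf3 was 0.32, and 0.09 without controls 2 and 3. Tcf4 and Tcf12 had positive values too. For Tcf4 control 1 (14.1 TPM) lay above all CXCL3 libraries (9.24 to 13.1 TPM). For Tcf12 it lay at 40.2 TPM, inside the CXCL3 range (37.4 to 41.8 TPM).

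Genes that release or hold TGF-beta outside the cell gave 7 positive and 4 negative values among 11 tested activation genes. Mmp14, a membrane-bound metalloproteinase, stood at 660, 727 and 625 TPM in controls against 557, 548 and 543 TPM under CXCL3, without overlap (log2 fold change -0.28 ± 0.07, adjusted p = 0.248 by limma). Thbs1, of the activator thrombospondin 1, was at 969 ± 333 and 1160 ± 86.2 TPM and its sign turned without controls 2 and 3 (-0.22). Of the extracellular antagonists, the proteoglycan genes Bgn (1395 ± 182 and 1302 ± 14.1 TPM) and Dcn (316 ± 14.6 and 285 ± 2.80 TPM) were the most abundant and the one with the smallest p. Among intracellular regulators Fkbp1a, of the receptor-binding protein FKBP12, was at 338 ± 22.2 and 298 ± 1.48 TPM (adjusted p = 0.392). Further receptors included the BMP co-receptor gene Rgmb (8.63 ± 2.46 and 12.1 ± 0.87 TPM, adjusted p = 0.420 by limma) and Nrp1 (15.3 ± 6.74 and 18.9 ± 2.40 TPM). Without controls 2 and 3 the log2 fold change went from 0.47 to 0.09 for Rgmb and from 0.36 to -0.28 for Nrp1. The procollagen protease gene Bmp1, which is no BMP ligand by function, was the most abundant of the further ligand list (298 ± 50.1 and 286 ± 9.94 TPM), and Gdf9 had its smallest p (1.26 ± 0.37 and 1.81 ± 0.84 TPM, adjusted p = 0.585).

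Of the members, 22 overlap another annotated gene, and for 7 the partner had a mean of at least 1 TPM. The partner was the more abundant gene for Bmp6 (mean 1.22 TPM, Txndc5 at 194 TPM) and Acvr2a (4.41 TPM, Orc4 at 53.4 TPM). The same held for Eng (6.26 TPM, Fpgs at 14.2 TPM). Inhba, with the pseudogene B230303A05Rik at 4.08 TPM, and Ltbp2, with the antisense gene D030025P21Rik at 5.38 TPM, were more abundant than their partners. All these partners lie on the other strand. The sources used here do not say whether counting used strand, so the split of reads between such pairs is uncertain. Id1, Id2, Id3, Smad6, Tgfb1 and Grem1 overlap no other gene of the table.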

How the data were processed

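TPM values per gene, as the authors deposited them, were read for the 6 libraries (0 columns belonged to other samples). Fastp, HISAT, RSEM and GRCm38.p5 are named, without versions, per the submitters' processing notes. The annotation is not given there, and 51719 of 51912 identifiers were matched to GENCODE M21 symbols. The 13139 genes that reached 1 TPM in 3 or more libraries entered limma 3.58.1 (R 4.3.3, eBayes with trend, no covariates) as log2(TPM + 1), two-sided, CXCL3 minus control, with Benjamini-Hochberg adjustment over all of them and a threshold of 0.05. The fit was tested on simulated data. For a single gene, an exact permutation test of 3 libraries against 3 has a smallest p of 0.1. Members, lists, tests and settings were chosen with earlier results of these data known. Values in every library are given for members with an unadjusted p under 0.05, for the Id genes and the highest members of each role, and for further members chosen after their values were seen. Other pathway genes are named where they passed, or had the highest TPM or smallest p of their list. The listed names Hjv and Sno matched no symbol. Alternatives were pseudocounts of 0.1 and 5, no filter and a filter at 5 TPM, median-of-ratios and quantile scaling, a loess correction for transcript length and GC in each library, eBayes without trend, library weights, a replicate block and left-out libraries.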

Additional observations from a re-analysis of the deposited data

How the results depend on the processing

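Across 17 alternative settings Id1, Id2, Id3 and Smad6 kept a positive and Fstl3 a negative log2 fold change. The groups of these genes did not overlap, so only scaling or the length and GC correction could have turned their signs. The other settings, left-out libraries among them, had to keep the sign and say nothing about it. Single-library exclusions gave 0.57 to 0.73 for Id1, 0.22 to 0.29 for Id2, 0.37 to 0.48 for Id3, 0.23 to 0.46 for Smad6 and -0.36 to -0.25 for Fstl3. Among fits with more than 1 control, members passed only with library weights, after the length and GC correction and without control 1. With library weights 11 members passed (10 higher, 1 lower) among 1446 genes, and after the length and GC correction 1 did (Id1). Without controls 2 and 3 the number was 2 (Id1 higher, Fstl1 lower) among 84 genes (32 higher, 52 lower), 35 members had groups that did not overlap, as did 64.6% of all genes with 1 control left, and the median over the members was -0.153. Leaving out 1 library gave 0 to 21 passing members among 0 to 4254 genes, 8 to 35 members without overlap (60.5% of all genes without control 1, 21.9% to 26% in the other exclusions) and member medians of 0.089 to 0.281. The highest of each was without control 1. With 0 genes called, 875 (without control 3), 765 (without CXCL3 library 1) and 799 (without CXCL3 library 2) had an unadjusted p under 0.05. All genes passing numbered 0 with no filter (1928 at an unadjusted p under 0.05), 5 with median-of-ratios scaling and 1 with eBayes without trend. Replicate numbers did not pair the libraries (correlations of same-numbered deviations 0.122, -0.011 and 0.077, and not every library correlated best with its own number), and a replicate block called 12 genes and 0 members, and did not call Tagln (adjusted p = 0.0581).

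Signs turned for few members under scaling. Median-of-ratios scaling gave -0.016 for Inhbb, -0.022 for Acvrl1, -0.047 for Smad2, -0.001 for Ltbp4 and -0.033 for Fst. Quantile scaling gave -0.068 for Inhbb, -0.038 for Acvrl1, -0.054 for Smad2, -0.082 for Fst and 0.002 for Bmp1. The length and GC correction gave -0.031 for Inhbb, -0.146 for Smad2, -0.021 for Smad5, -0.011 for Ski and -0.068 for Ltbp4. Library weights gave 0.043 for Fstl1 and 0.052 for Bmp1. Without controls 2 and 3, 24 members turned: Inhba -0.03, Inhbb -0.158, Tgfbr1 -0.193, Tgfbr2 -0.312, Tgfbr3 -0.155, Acvr1 -0.112, Acvr1b -0.159, Acvrl1 -0.212, Bmpr1a -0.213, Bmpr2 -0.188, Smad1 -0.15, Smad2 -0.192, Smad3 -0.253, Smad4 -0.014, Smad5 -0.196, Smurf1 -0.182, Smurf2 -0.165, Ski -0.175, Skil -0.188, Pmepa1 -0.091, Ltbp1 -0.215, Ltbp2 -0.022, Ltbp3 -0.011 and Grem1 -0.023, as did Nrp1 at -0.278 and Thbs1 at -0.219. Single exclusions also turned Tgfb3 (-0.141 to 0.021), Inhbb (-0.032 to 0.153), Acvrl1 (-0.049 to 0.179), Smad2 (-0.053 to 0.132), Ski (-0.026 to 0.276), Tgfb1i1 (-0.148 to 0.022), Fst (-0.007 to 0.073), Fstl1 (-0.156 to 0.096) and Bmp1 (-0.114 to 0.089). The cause of these turns was not tested. TPM keeps no read depth, so counting error is unknown, and 3 libraries a group limit the precision.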
